A study of Mus musculus with 2 samples.

Results

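A set of 10 complement genes were followed through the liver myeloid cells of mice on a normal diet (ND) or a steatohepatitis diet. They are the 3 chains of C1q (C1qa, C1qb and C1qc), the convertase genes C4b, C3, Cfb and Cfp, the terminal component C6, and the anaphylatoxin receptors C3ar1 and C5ar1. These 10 genes were taken by name from the 25909 genes of a single-cell mRNA count matrix. The matrix held cells of 4 male mice, each marked by its own hashtag antibody. The Egr2fl/fl mice carried floxed alleles of Egr2, an early growth response transcription factor, and the Lyz2Cre/+.Egr2fl/fl mice also carried a Cre recombinase driven from Lyz2, a gene of monocytes, macrophages and neutrophils. For each genotype 1 mouse received ND and 1 mouse received CDA-HFD, a choline-deficient high-fat diet, for 7 weeks. The methods give an age of 6 to 12 weeks for the mice that were fed, not an age at which cells were taken. The cells had been sorted as CD45.2+ CD11b+ liver leukocytes that lacked T cell, B cell, NK cell and eosinophil markers, so hepatocytes, the main source of circulating complement, were not sampled by design.

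Each group was thus a single mouse. No difference below has a replicate check, no p-value is given, and every interval is an exact 95% interval that covers counting error only and takes each count as an independent molecule. After removal of barcodes named as doublets and of cells with over 25% mitochondrial counts, 15384 cells remained, with 1723 and 1590 cells on ND and 5885 and 6186 cells on CDA-HFD (Egr2fl/fl and Lyz2Cre/+.Egr2fl/fl, in this order throughout). The counts summed to between 27840300 and 90124521 per mouse, with a median of 13168 to 16459 counts per cell. Levels are given as CPM, the counts of a gene per 1000000 counts of the same cells, and are compared within a gene only. Egr2 itself was lower in the mice with Cre, at 5.05 against 1.03 CPM in Kupffer cell-like cells on ND and at 58.3 against 13.7 CPM in hLAM-like cells on CDA-HFD.

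Complement is a cascade of plasma proteases. The classical pathway starts when C1q, a hexamer built from A, B and C chains, binds immune complexes or dying cells, after which C4 and C2 form a convertase that splits C3. Factor B (Cfb) and properdin (Cfp) build and steady the alternative convertase, and C6 joins the membrane attack complex. The split products C3a and C5a signal through C3ar1 and C5ar1. Kupffer cells, the resident macrophages of the liver sinusoids, are known for their C1q and for clearing complement-coated particles.

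Cells were assigned to classes from marker genes, none of which is a complement gene, and the limits of this gate were set after the data had been seen. Kupffer cell-like cells, which held a count of Timd4, numbered 743 and 799 on ND and only 7 and 13 on CDA-HFD. The moKC-like cells (monocyte-derived Kupffer cells) carried Kupffer markers but no Timd4 count, and numbered 40, 56, 75 and 106. On ND their cells were shallow, with a median of 7058.5 and 8336 counts, so that Kupffer cells with a missed Timd4 count cannot be told apart from them there. On CDA-HFD their median of 28926 and 24522 counts was close to the 25888 and 23546 counts of the Kupffer cell-like cells on ND. Cd5l and Clec4f, markers of both gates, stood at 3252 and 4117 CPM and at 767 and 1298 CPM in them. In Kupffer cell-like cells on ND these markers stood at 6178 and 6302 CPM and at 7343 and 7873 CPM. Cd207, a marker of the moKC gate, was 1583 and 1452 CPM against 1112 and 1116 CPM. The hLAM-like cells (hepatic lipid-associated macrophages, which express Spp1 and Gpnmb) numbered 21 and 12 on ND and 1197 and 1101 on CDA-HFD, where their Spp1 stood at 776 and 946 CPM. No gate took 11.4% of the cells, and 14.7% lay within 0.05 of the score limit.

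Summed over all cells of a mouse, 8 of the 10 genes differed at least 2-fold between the diets in each genotype, 7 of them lower and 1 higher on CDA-HFD. The same was true of 12.3% of the genes with at least 500 counts in the Egr2fl/fl pair and of 12.7% in the Lyz2Cre/+.Egr2fl/fl pair. C6 stood at 613 and 644 CPM on ND and at 3.27 and 5.99 CPM on CDA-HFD. C5ar1 was the gene that was higher, at 40.2 and 55.9 CPM against 126 and 139.9 CPM, a ratio of 3.13 and 2.50. With each cell weighted equally, the latter was 1.64 and no longer past 2-fold. C3 was short of 2-fold, with ratios of 1.04 and 1.94. It became 2.29 and 3.19 without the cells with a count of the chemokine gene Cxcl9, an alternative chosen after seeing the data. Kupffer cell-like cells were 43.1% and 50.3% of the cells on ND and 0.119% and 0.210% on CDA-HFD, and the part of this makeup in the sums was not tested. The values within classes are given next.

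C1q was higher in Kupffer cell-like cells on ND than in moKC-like cells on CDA-HFD, and higher in those than in hLAM-like cells on CDA-HFD. The genes of its chains lie side by side on the minus strand of chromosome 4 (GRCm38), C1qb at chr4:136880129-136886187, C1qc at chr4:136889804-136893065 and C1qa at chr4:136895917-136898803, together 18.7 kb. C1qa stood at 7709.5 and 8178 CPM in Kupffer cell-like cells on ND. In the moKC-like cells on CDA-HFD it stood at 4605 and 4929 CPM, and in hLAM-like cells at 1785 and 1641 CPM. The order was the same in both genotypes. Within a diet the first 2 classes lay closer together, with moKC-like cells at 5324 and 6957 CPM on ND, and the 7 and 13 Kupffer cell-like cells on CDA-HFD at 4644 and 4945 CPM. In the remaining macrophages, which carried general macrophage markers only, C1qa was 4670.5 and 5144 CPM on ND and 2111 and 2245 CPM on CDA-HFD. The ratio of the diets in this class was 0.452 (0.436 to 0.468) and 0.436 (0.420 to 0.454), and scaling the counts by TMM factors (edgeR) moved it to 0.526 and 0.529, short of 2-fold.

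At the level of cells, C1q was nearly universal in Kupffer-type macrophages and patchy in hLAM-like cells. All 3 chains were counted together in 99.6% and 99.1% of Kupffer cell-like cells on ND and in 94.7% and 98.1% of moKC-like cells on CDA-HFD. In hLAM-like cells on CDA-HFD the share was 58.1% and 53.0%, and at least 1 chain was seen in 74.0% and 70.8%. The lowest values above 0 in the matrix were 7 for C1qa and C1qc and 6 for C1qb, whereas other members reached down to 1, so low C1q values had been removed and show as 0. Had every 0 hidden the largest removed value, C1qa in hLAM-like cells on CDA-HFD would still have been only 1884 and 1764 CPM, but in Ly6Chi monocyte-like cells it could have been 549 and 569.9 CPM rather than the 128 and 169 CPM seen. C1qa was seen in 1.86% and 3.27% of neutrophil-like cells on CDA-HFD, a class not known to make C1q, and in 6.24% and 9.26% of the Ly6Chi cells. C1q in monocytes and neutrophils is therefore given below only as counted.

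The balance of the chains differed between Kupffer cell-like cells on ND and the macrophages of CDA-HFD livers. C1qa counts were 1.79 (1.78 to 1.81) and 1.83 (1.81 to 1.85) times the C1qb counts in Kupffer cell-like cells on ND. In moKC-like cells on CDA-HFD the same ratio was 1.41 (1.36 to 1.45) and 1.41 (1.37 to 1.44), and in hLAM-like cells it was 1.00 (0.988 to 1.01) and 0.958 (0.945 to 0.972). The intervals of these 3 sets of cells did not overlap, but the sets differ in diet as well as in class. In moKC-like cells on ND the ratio was 1.74 (1.62 to 1.87) and 1.64 (1.56 to 1.72), and in the 13 Kupffer cell-like cells of the Lyz2Cre/+.Egr2fl/fl mouse on CDA-HFD it was 1.36 (1.26 to 1.47). The former interval overlapped that of Kupffer cell-like cells on ND in the Egr2fl/fl mouse, and the latter that of moKC-like cells on CDA-HFD. In the remaining macrophages it was 1.56 and 1.59 on ND and 1.07 and 1.13 on CDA-HFD. Between Kupffer cell-like and moKC-like cells, class and diet therefore cannot be told apart. On CDA-HFD alone, hLAM-like cells lay below moKC-like cells in both genotypes. C1qc had the same order in these 3 sets, with 1.56 (1.55 to 1.58) and 1.56 (1.54 to 1.57) times the C1qb counts in Kupffer cell-like cells on ND, 1.28 (1.24 to 1.33) and 1.40 (1.36 to 1.44) in moKC-like cells on CDA-HFD and 0.940 and 0.972 in hLAM-like cells. The moKC-like cells on ND differed from the pattern of C1qa. Their C1qc ratio of 1.41 (1.31 to 1.52) and 1.36 (1.29 to 1.43) lay below that of the Kupffer cell-like cells on ND in both genotypes, and its interval overlapped that of the moKC-like cells on CDA-HFD in both. The order of the 3 sets held for the median over single cells with at least 20 counts of C1qb, where C1qa over C1qb was 1.84 and 1.83, then 1.42 and 1.42, then 0.947 and 0.922. The removed low values bear little on it, since the hLAM-like ratio would have been at most 1.06 and 1.03 had every C1qa 0 hidden the largest of them.

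**Figure D1:**
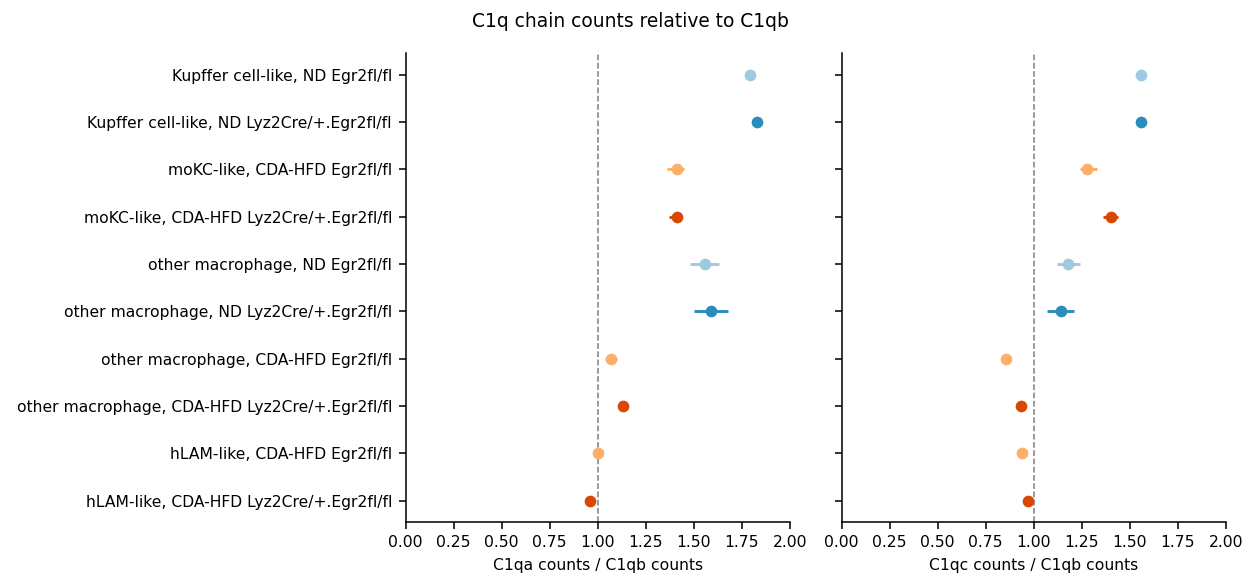
Counts of C1qa (left) and C1qc (right) divided by counts of C1qb in macrophage classes of each mouse, with exact 95% intervals; the dashed line marks equal counts. C1qa over C1qb is 1.79 and 1.83 in Kupffer cell-like cells on ND and 1.00 and 0.958 in hLAM-like cells on CDA-HFD.

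The RefSeq windows from 250 bases before to 50 after the start of transcription are shown for both C1q chains that had one, because the chains share a level pattern but not their balance, and for C6 and C3, which stood high in different classes. A window was at hand for 7 of the 10 genes (C1qb, C1qc, C6, C3, Cfp, C3ar1 and C5ar1), on GRCm38.p6. Each is written 5′ to 3′ on the strand of the gene, and capitals mark matches on either strand to GGAAGT (PU.1), TGCTGA (a MAF half-site), TTGCNNAA (C/EBP), the IRF motif, TTCNNNGAA (GAS) or GCGNGGGCG (EGR).
C1qb, chr4:136886151-136886450, minus strand: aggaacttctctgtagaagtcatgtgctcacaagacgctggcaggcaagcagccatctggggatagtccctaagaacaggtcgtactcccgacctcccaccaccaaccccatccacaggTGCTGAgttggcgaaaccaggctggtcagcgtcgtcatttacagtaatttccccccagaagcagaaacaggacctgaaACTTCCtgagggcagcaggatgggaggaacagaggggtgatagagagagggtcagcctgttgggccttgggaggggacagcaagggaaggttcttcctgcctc
C1qc, chr4:136892865-136893164, minus strand: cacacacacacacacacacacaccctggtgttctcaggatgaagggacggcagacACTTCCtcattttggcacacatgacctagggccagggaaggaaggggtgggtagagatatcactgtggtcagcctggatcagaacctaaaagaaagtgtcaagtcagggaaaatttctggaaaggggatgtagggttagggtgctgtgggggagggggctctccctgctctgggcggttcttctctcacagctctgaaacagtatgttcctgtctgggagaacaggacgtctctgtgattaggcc
C6, chr15:4726960-4727259, plus strand: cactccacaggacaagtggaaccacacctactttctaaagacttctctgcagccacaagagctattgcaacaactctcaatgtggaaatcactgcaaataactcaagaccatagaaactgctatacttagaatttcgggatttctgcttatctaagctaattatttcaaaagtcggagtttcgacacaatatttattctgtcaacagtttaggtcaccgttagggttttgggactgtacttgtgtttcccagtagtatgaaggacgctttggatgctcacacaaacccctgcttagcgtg
C3, chr17:57228087-57228386, minus strand: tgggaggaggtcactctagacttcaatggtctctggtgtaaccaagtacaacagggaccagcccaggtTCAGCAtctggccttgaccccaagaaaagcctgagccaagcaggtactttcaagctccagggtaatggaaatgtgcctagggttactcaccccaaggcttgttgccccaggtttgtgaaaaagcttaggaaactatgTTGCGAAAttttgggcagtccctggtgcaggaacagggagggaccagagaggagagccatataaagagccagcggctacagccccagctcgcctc
The GGAAGT letters stood in the windows of C1qb, C1qc and C5ar1 and in 23.8% of all 32851 windows. The TGCTGA letters stood in those of C1qb, C3, C3ar1 and C5ar1 and in 19.5% of all, and TTGCNNAA in that of C3 and in 10.8% of all. None of the 7 windows held the IRF motif, TTCNNNGAA or GCGNGGGCG, which 3.44%, 8.30% and 5.55% of all windows held. The window of C6 held none of the 6 motifs.

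C6 and C4b separated the Kupffer cell-like cells of ND livers from the moKC-like cells of CDA-HFD livers. C6 (chr15:4727175-4814967) encodes a subunit of the membrane attack complex. It stood at 1028 and 945 CPM in the former and at 14.9 and 49.1 CPM in the latter, which is 0.0145 (0.00983 to 0.0206) and 0.0519 (0.0434 to 0.0616) times as much. C4b (chr17:34728380-34743882) encodes C4, which supplies the covalent part of the classical convertase. It stood at 300.5 and 300.0 CPM against 4.80 and 18.8 CPM, a ratio of 0.0160 (0.00766 to 0.0294) and 0.0627 (0.0466 to 0.0826). Under the alternatives the ratio of C4b went from 0.00201, with only cells of at least 90% own hashtag counts, to 0.0180 in the Egr2fl/fl mice. In the Lyz2Cre/+.Egr2fl/fl mice it went from 0.0283, without the top 10% of cells by total counts, to 0.0820. Both genes were thus far below their level in Kupffer cell-like cells on ND in both genotypes. The size of the difference for C4b rests on few cells. C4a, a close copy of C4b, had 252 counts in all cells, and reads that both copies share could have been split between them.

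The difference lay in the share of cells as well as in the level. C6 was counted in 723 of 743 and 757 of 799 Kupffer cell-like cells on ND, but in 12 of 75 and 16 of 106 moKC-like cells on CDA-HFD. C4b was counted in 561 and 574 of the former and in 2 and 6 of the latter. After cells had been thinned to 5000 counts, C6 remained in 92.9% and 91.6% of the Kupffer cell-like cells and in 8.22% and 11.4% of the moKC-like cells. Shallower cells were left out of these shares, 14 and 24 of the former and 2 and 1 of the latter. In the few Kupffer cell-like cells left on CDA-HFD, 3 of 7 and 9 of 13 held C6, at 106 and 468 CPM. C4b was held by 2 and 3 of these few cells, at 45.4 and 239 CPM. In the moKC-like cells of ND livers C6 stood at 394 and 260.4 CPM and C4b at 190.4 and 119 CPM. For C6 and C4b, class and diet therefore cannot be told apart between Kupffer cell-like and moKC-like cells.

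Properdin differed less between Kupffer cell-like cells on ND and moKC-like cells on CDA-HFD. Cfp (chrX:20925454-20931555), the stabiliser of the alternative convertase, stood at 2171 and 2265 CPM in Kupffer cell-like cells and at 811 and 1162 CPM in the moKC-like cells, a ratio of 0.374 (0.356 to 0.392) and 0.513 (0.494 to 0.532). It was found in 98.7% and 97.2% of the moKC-like cells. In hLAM-like cells Cfp was 205 and 227 CPM. Its ratio between moKC-like and Kupffer cell-like cells lay well above that of C6 and C4b in each genotype, with intervals that did not overlap.

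Across all members, 5 of 10 genes with at least 500 counts were past 2-fold between the moKC-like and the Kupffer cell-like cells in the Egr2fl/fl mice (C6, C4b, Cfb and Cfp lower, C5ar1 higher), beside 9.63% of all genes. In the Lyz2Cre/+.Egr2fl/fl mice it was 3 of 9 (C6 and C4b lower, C5ar1 higher), beside 6.88%. C5ar1 was only just past 2-fold, with ratios of 2.07 and 2.03, and went down to 1.95 with each cell weighted equally and to 1.79 with at least 90% own hashtag counts. Cfb in the Egr2fl/fl mice had a ratio of 0.478, which became 0.540 when 1 more marker was needed to enter a class. Of the other complement genes on the list, 48 in number with 45 in the matrix, 12 could be compared in each genotype and 5 were at least 2-fold lower, none higher. Among them in both genotypes were Fcna (ficolin A, a lectin pathway initiator), C2 (the partner of C4b in the classical convertase) and Vsig4 (a complement receptor of Kupffer cells). C2 stood at 124 and 111 CPM against 2.88 and 1.48 CPM. Low values of Fcna and Vsig4 had been removed like those of C1q. Cd55 was among the 5 in the Egr2fl/fl mice, at 61.9 against 2.40 CPM, but in the Lyz2Cre/+.Egr2fl/fl mice it stood at 27.8 against 35.8 CPM, a ratio of 1.29 (1.02 to 1.60). C1ra was among the 5 in the Lyz2Cre/+.Egr2fl/fl mice, with a ratio of 0.340 (0.229 to 0.487), beside 0.731 (0.540 to 0.971) in the Egr2fl/fl mice.

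**Figure D2:**
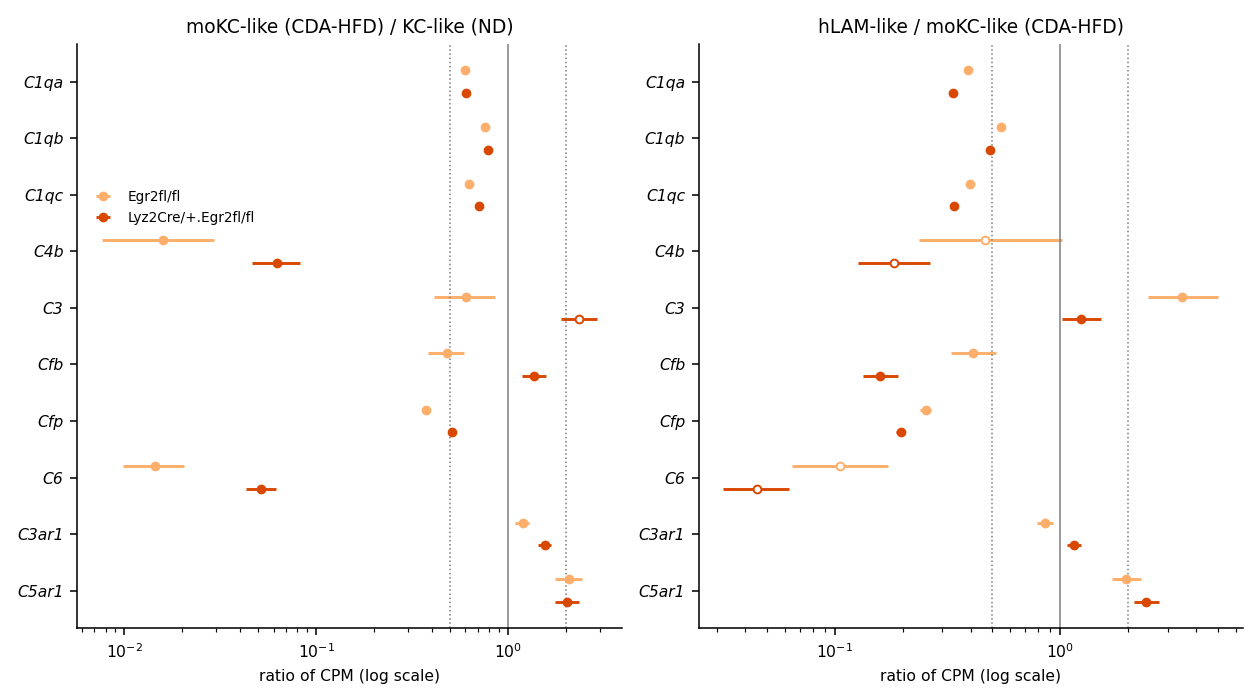
Ratio of CPM (log axis) for each gene between moKC-like cells on CDA-HFD and Kupffer cell-like cells on ND (left) and between hLAM-like and moKC-like cells on CDA-HFD (right), in each genotype, with exact 95% intervals. Dotted lines mark 2-fold, and open circles genes with fewer than 500 counts. On the left, C6 and C4b lie below 0.1 in both genotypes, while the C1q chains lie between 0.597 and 0.785.

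Between the macrophages of CDA-HFD livers, hLAM-like cells had less C1q, Cfb and Cfp than moKC-like cells. The members past 2-fold were 5 of 8 in the Egr2fl/fl mouse, beside 7.86% of all genes, and 6 of 8 in the Lyz2Cre/+.Egr2fl/fl mouse, beside 7.11%. Cfp in hLAM-like cells was 0.253 (0.239 to 0.267) and 0.196 (0.187 to 0.205) times its moKC-like level, and C1qa 0.388 (0.379 to 0.396) and 0.333 (0.326 to 0.339) times. C5ar1 was higher in hLAM-like cells, and C3 by over 2-fold in 1 genotype. C3 was 54.7 and 54.3 CPM in hLAM-like cells against 15.8 and 43.9 CPM in moKC-like cells, with ratios of 3.46 (2.45 to 5.04) and 1.24 (1.02 to 1.51). The alternatives gave 2.46 to 6.56 in the former, where the moKC-like cells held 33 counts of C3, and 1.07 to 2.34 in the latter. C5ar1 was 173 and 220.0 CPM against 88.8 and 91.5 CPM, a ratio of 1.95 (1.69 to 2.28) and 2.40 (2.12 to 2.74), and the latter was 1.63 without the top 10% of cells by total counts. Cfb in the Egr2fl/fl mouse (0.411) reached 0.578 with each cell weighted equally, and C1qb in the Lyz2Cre/+.Egr2fl/fl mouse (0.488) reached 0.537 with TMM scaling, so these members were also not past 2-fold throughout. C3ar1 differed by less than 2-fold, with ratios of 0.857 and 1.15. Of 11 other complement genes compared, Fcna and Vsig4 were at least 2-fold lower in hLAM-like cells in both genotypes, and Itgam and Itgax, the alpha chains of complement receptors 3 and 4, at least 2-fold higher.

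C3 (chr17:57203970-57228136), the central component of all pathways, was higher in monocyte-like and neutrophil-like cells than in Kupffer cell-like cells. In Ly6Chi monocyte-like cells it stood at 428 and 405 CPM on ND and at 193 and 184 CPM on CDA-HFD. In neutrophil-like cells it was 238, 75.2, 191 and 163 CPM over the 4 mice in the order above, and in Kupffer cell-like cells on ND 26.4 and 18.7 CPM. Of the 110 neutrophil-like cells behind the 238 CPM, the 106 without a count of the chemokine gene Cxcl9 stood at 87.5 CPM. Summed over the 21 and 12 hLAM-like cells on ND, C3 stood at 418 and 349 CPM, against 54.7 and 54.3 CPM on CDA-HFD. The median over these single cells on ND was 227 CPM in the Egr2fl/fl mouse but 0 in the Lyz2Cre/+.Egr2fl/fl mouse. In the latter most of the 12 cells held no C3 count, and the 349 CPM rests on 73 counts. Cfb (chr17:34856374-34862518), the protease of the alternative convertase, was likewise highest in Ly6Chi cells on ND, at 309 and 128 CPM, and stood at 32.8 and 33.4 CPM there on CDA-HFD. The gene model Gm20547 shares 6107 bases with Cfb on the same strand, so reads of both cannot be fully told apart.

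The ND monocytes that held these levels also held Cxcl9, a chemokine induced by interferon gamma. A Cxcl9 count was present in 35.9% and 13.0% of the Ly6Chi monocyte-like cells on ND and in 4.60% and 3.79% on CDA-HFD. Cfb was 689 and 613 CPM in the ND cells with Cxcl9 and 30.9 and 35.1 CPM in those without. The latter lay below the Kupffer cell-like cells on ND without Cxcl9, at 86.3 and 57.5 CPM, so Ly6Chi cells were not highest among cells without Cxcl9. C3 was 730.2 and 1529 CPM with Cxcl9 and 206 and 189 CPM without. In the CDA-HFD mice Cfb was 155 and 142 CPM with Cxcl9 and 26.8 and 28.5 CPM without, so cells with Cxcl9 had more Cfb in each of the 4 mice. Only 15 cells of the Lyz2Cre/+.Egr2fl/fl mouse on ND had Cxcl9.

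**Figure D3:**
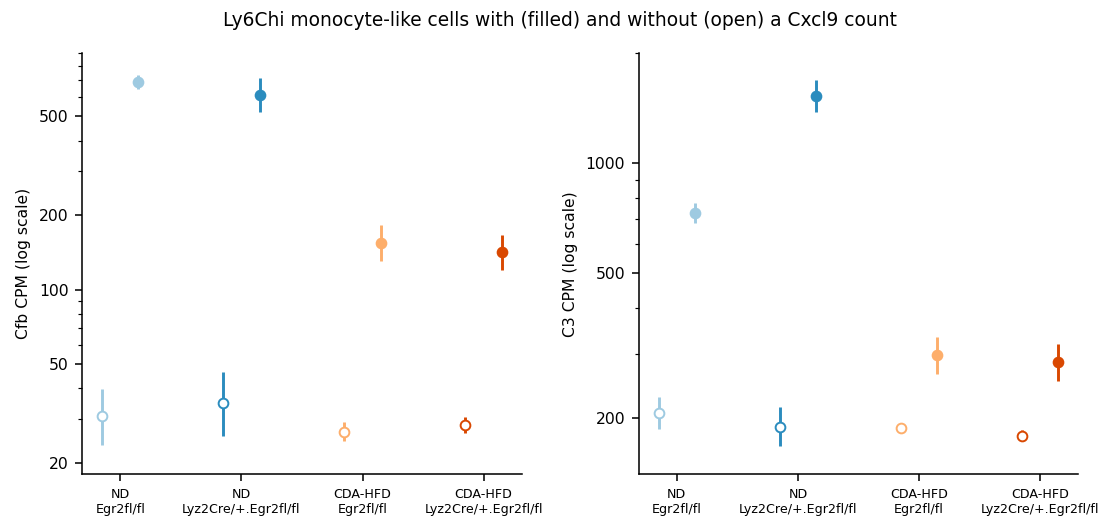
CPM of Cfb (left) and C3 (right), log axes, in Ly6Chi monocyte-like cells with (filled) and without (open) a Cxcl9 count, for each mouse, with exact 95% Poisson intervals. Among cells without Cxcl9 the 4 mice lie close together, with Cfb between 26.8 and 35.1 CPM and C3 between 179 and 206 CPM.

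In Ly6Chi monocyte-like cells, 6 of 8 members were past 2-fold between the diets in the Egr2fl/fl mice, beside 6.33% of all genes, and 4 of 8 in the Lyz2Cre/+.Egr2fl/fl mice, beside 5.49%. C3 and Cfb were lower on CDA-HFD in both genotypes. Cfb had ratios of 0.106 (0.0961 to 0.117) and 0.260 (0.223 to 0.305). Without the cells with Cxcl9, an alternative chosen after seeing the data, these ratios became 0.869 and 0.813, and those of C3 changed from 0.451 and 0.454 to 0.911 and 0.947. The 2-fold differences of Cfb and C3 between the diets were therefore not present in the cells without Cxcl9. They were present in the cells with Cxcl9, where Cfb was 689 and 613 CPM on ND against 155 and 142 CPM on CDA-HFD. C3 in those cells was 730.2 and 1529 CPM against 297 and 284 CPM. The receptors were higher on CDA-HFD. C5ar1 stood at 16.9 and 20.6 CPM on ND and at 72.3 and 108 CPM on CDA-HFD, and C3ar1 at 20.2 and 28.8 CPM against 40.4 and 85.5 CPM. The C3ar1 ratio of the Egr2fl/fl mice was 2.00 and became 1.74 with each cell weighted equally, whereas in the Lyz2Cre/+.Egr2fl/fl mice it was 2.97 and at least 2.77 under every alternative run. The remaining members past 2-fold in the Egr2fl/fl mice were C1qa and C1qc, at 0.366 and 0.420, which became 0.669 and 0.828 without the cells with Cxcl9. Of 9 other complement genes compared in each genotype, 1 was past 2-fold, Itgax in the Egr2fl/fl mice at 0.453 (0.399 to 0.516), and its ratio in the Lyz2Cre/+.Egr2fl/fl mice was 1.36 (1.02 to 1.86).

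C5ar1 (chr7:16246743-16259540), the receptor that draws neutrophils towards C5a, was highest in neutrophil-like cells, at 433, 556, 673 and 536 CPM in the 4 mice. It was counted in 63.6% to 76.3% of them. These cells were shallow, with a median of 3832 to 4139 counts. Among them 1 of 4 members with enough counts was past 2-fold between the diets in the Egr2fl/fl mice (C1qa), beside 14.1% of all genes, and 1 of 6 in the Lyz2Cre/+.Egr2fl/fl mice (C3), beside 10.4%. Both calls depended on the settings, since the ratio of C1qa (0.474) became 0.600 with each cell weighted equally and that of C3 (2.17) became 1.42 with Seurat clusters. In the remaining macrophages it was 2 of 7, beside 6.15%, and 2 of 6, beside 7.34%. C1qa was the member that both genotypes shared there. The other in the Lyz2Cre/+.Egr2fl/fl mice was Cfp, with a ratio of 3.23 that became 1.64 when 1 more marker was needed, and in the Egr2fl/fl mice C1qc, whose 0.478 became 0.575.

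C3ar1 (chr6:122847138-122856161), the receptor of C3a, was a macrophage transcript. It stood at 240.2 and 194 CPM in Kupffer cell-like cells on ND and at 285 and 301 CPM in moKC-like and 244 and 348 CPM in hLAM-like cells on CDA-HFD. Over the 33 combinations of class and mouse with at least 50 cells, its log2 CPM resembled most that of Slc7a8 (Pearson r = 0.946), Stab1 (0.937) and BC005537 (0.920). These points share mice and libraries, so the values are a description. On the same measure C1qa was closest to C1qc (0.997) and C1qb (0.981), C6 to Chp2 (0.930) and Apoc1 (0.921), C3 to Gda (0.842), Cfp to Wfdc17 (0.891), C4b to Rhobtb1 (0.878), C5ar1 to Pgd (0.949) and Cfb to Gm20547 (0.924), which overlaps it.

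The comparison of genotypes asked whether loss of Egr2 in Lyz2-expressing cells went with other complement levels. In Kupffer cell-like cells on ND none of the 10 members was past 2-fold, beside 0.608% of all genes. The C1q chains had ratios of 1.03 to 1.06, C4b 0.998 (0.962 to 1.04) and C6 0.920 (0.901 to 0.939), all Lyz2Cre/+.Egr2fl/fl over Egr2fl/fl. Cfb was further off, at 91.4 against 59.3 CPM (0.649, 0.601 to 0.700). Hepatocyte transcripts differed as well in these cells, with Apoa2 at 19.4 and 51.8 CPM. Over 10 alternatives, among them the removal of cells above the median of hepatocyte genes, the ratio of Cfb lay between 0.625 and 0.689 and that of C6 between 0.887 and 0.946. Of 14 other complement genes compared here, 1 was past 2-fold, namely Cd55, a membrane regulator of the convertases, at 61.9 CPM in Egr2fl/fl and 27.8 CPM in Lyz2Cre/+.Egr2fl/fl (0.450, 0.404 to 0.499).

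On CDA-HFD the receptors were higher in the mouse with Cre in 3 classes. C3ar1 in hLAM-like cells was 244 CPM in Egr2fl/fl and 348 CPM in Lyz2Cre/+.Egr2fl/fl, a ratio of 1.42 (1.38 to 1.47). It was 187 and 280.3 CPM in the remaining macrophages (1.50, 1.39 to 1.62) and 40.4 and 85.5 CPM in Ly6Chi monocyte-like cells (2.11, 1.95 to 2.29). The last ratio was 1.83 with Seurat clusters and 1.97 with at least 90% own hashtag counts, short of 2-fold in both. C5ar1 had ratios of 1.27 (1.22 to 1.32), 1.39 (1.27 to 1.53) and 1.50 (1.40 to 1.60) in the same classes. In moKC-like cells C3ar1 was 285 and 301 CPM (1.06, 0.950 to 1.18), and in neutrophil-like cells C5ar1 was lower in the mouse with Cre (0.797, 0.754 to 0.844). In Kupffer cell-like cells on ND, C3ar1 was likewise lower (0.808, 0.773 to 0.844). With 1 mouse per group, genotype and individual cannot be told apart.

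Few members reached 2-fold between the genotypes on CDA-HFD. The counts were 0 of 5 in moKC-like cells, beside 1.05% of all genes, 0 of 8 in hLAM-like cells, beside 0.447%, and 0 of 7 in the remaining macrophages, beside 0.328%. In Ly6Chi monocyte-like cells it was 1 of 8 (C3ar1, a call lost under the 2 alternatives given above), beside 0.228%, and in neutrophil-like cells 1 of 6 (C1qc), beside 0.954%. C1qc, whose low values had been removed, was counted in only 1.53% and 2.75% of these neutrophil-like cells. Of the other complement genes, 1 of 10 was past 2-fold in hLAM-like cells, Itgax, at 188 CPM in Egr2fl/fl and 84.7 CPM in Lyz2Cre/+.Egr2fl/fl (0.449, 0.426 to 0.474). None of the 6 to 9 compared was in each of the remaining classes. In moKC-like cells C6 (14.9 and 49.1 CPM) and C4b (4.80 and 18.8 CPM) were higher in the mouse with Cre but had fewer than 500 counts, with ratios of 3.30 (2.22 to 5.05) and 3.92 (1.97 to 8.66). They came from 12 and 16 cells with C6 and from 2 and 6 cells with C4b. Also below 500 counts there, C3 (15.8 and 43.9 CPM) had a ratio of 2.77 (1.87 to 4.21) and Cfb (43.7 and 81.2 CPM) 1.86 (1.45 to 2.40). C5ar1, likewise below 500 counts, was at 1.03 (0.848 to 1.25).

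**Figure D4:**
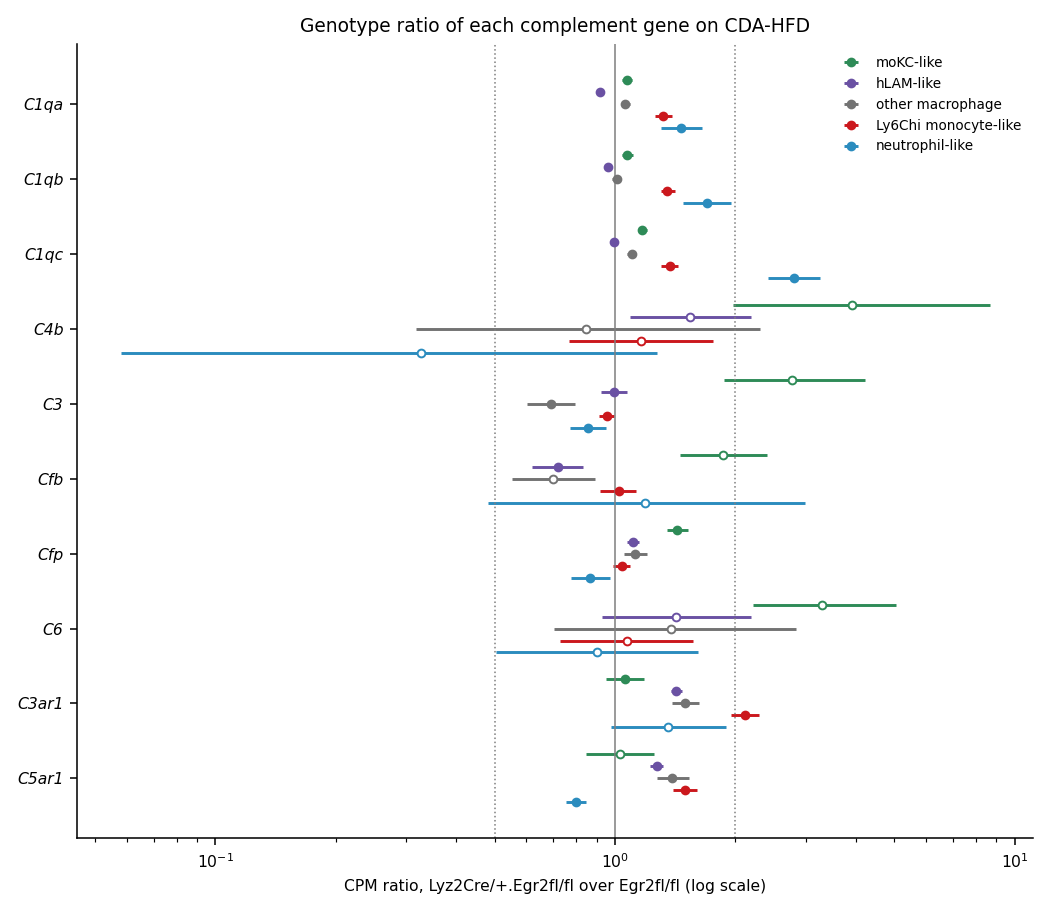
Ratio of CPM between the Lyz2Cre/+.Egr2fl/fl and the Egr2fl/fl mouse on CDA-HFD (log axis) for each gene in 5 cell classes, with exact 95% intervals; open circles mark genes with fewer than 500 counts and dotted lines 2-fold. C3ar1 lies at 1.42, 1.50 and 2.11 in hLAM-like cells, other macrophages and Ly6Chi monocyte-like cells.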

How the data were processed

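Single-cell libraries of sorted liver myeloid cells were made with BD Rhapsody and TAS-Seq, per the paper's methods. The authors mapped reads to GRCm38, kept barcodes above an inflection point, assigned them to hashtags and deposited whole-number counts per gene and cell. The submitters' processing notes name R 4.2.1 and Seurat 4.1.1. From the deposited counts, 1392 barcodes named doublets, cells with over 25% mitochondrial counts and 7 other hashtag columns were not used. Classes were gated on fixed marker lists (highest score of at least 0.25 with 3 markers, limits set after the data had been seen). Counts were summed per class and mouse and scaled to CPM. Poisson, Clopper-Pearson and binomial-split intervals (scipy 1.17.1) are exact at 95%. A gene was called past 2-fold at a ratio of at least 2 or at most 0.5 with at least 500 counts over both sides. Doublets within a mouse carry 1 hashtag and were not removed. Planned ratios that were not computed are those of genotypes over all cells and in ND classes other than Kupffer cell-like, and all ratios of Ly6Clo monocyte-like and Cd209a+ dendritic cell-like cells. The code was tested on simulated data. Alternatives used edgeR 4.0.16 and Seurat 5.3.0 (R 4.3.3). All 10 members were named, with the 3 genes most alike to each. The members and lists were chosen with earlier results of these data known. The values of 1 gene of the list of other complement genes are not reported here.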

Additional observations from a re-analysis of the deposited data

Results flagged for a closer look

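Only members with at least 500 counts in the comparison of each genotype were considered here, which left out C1qb and C1qc in neutrophil-like cells. In 7 cases the ratio of a member pointed opposite ways in the Egr2fl/fl and the Lyz2Cre/+.Egr2fl/fl mice, with both counting intervals clear of 1. The difference was not tested, since each ratio rests on 1 mouse per side, and in 5 of the 7 cases at least 1 of both ratios crossed 1 under an alternative.

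Between moKC-like cells on CDA-HFD and Kupffer cell-like cells on ND, Cfb had ratios of 0.478 and 1.37, and stayed between 0.379 and 0.540 and between 1.11 and 1.44 under the alternatives. C1qa in Ly6Chi monocyte-like cells had ratios between the diets of 0.366 and 1.33, which stayed between 0.307 and 0.669 and between 1.12 and 5.17. In these 2 cases neither ratio crossed 1. On ND, C1qa was counted in only 11.4% of 220 and 7.83% of 115 Ly6Chi monocyte-like cells.

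C1qb in Ly6Chi monocyte-like cells had 0.660 and 1.51, with ranges of 0.559 to 1.30 and 1.13 to 8.51. The highest value of the latter, like the 5.17 of C1qa, came with at least 90% own hashtag counts. Without the cells with Cxcl9, C1qb was above 1 in both genotypes, at 1.30 and 1.69. In neutrophil-like cells C1qa had 0.474 and 1.44, with ranges of 0.259 to 0.600 and 0.578 to 9.61, the 0.578 with at least 90% own hashtag counts. On ND it was counted in only 2.73% of 110 and 1.51% of 199 neutrophil-like cells, so these ratios rest on very few cells. C3 there had 0.802 and 2.17, with ranges of 0.789 to 2.24 and 1.42 to 2.91, and without the cells with Cxcl9 it was 2.24 and 2.23. C3ar1 over all cells had 0.729 and 1.06, with ranges of 0.518 to 0.808 and 0.810 to 1.19, the 0.810 without the top 10% of cells by total counts. Between hLAM-like and moKC-like cells, C3ar1 had 0.857 and 1.15, with ranges of 0.842 to 0.974 and 0.834 to 1.27, the 0.834 under the same alternative.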

How the results depend on the processing

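No paired analysis was possible because each group was 1 mouse. Of 179 recomputed counts of members past 2-fold, 20 differed from the reported count by over 1.5 times, in 9 of 18 comparisons, and no ratio past 2-fold changed direction. Of the 53 ratios past 2-fold, 21 were short of it under at least 1 alternative. For the diets in the remaining macrophages, the count of 2 in Egr2fl/fl became 0 with 1 more marker needed and 0 with TMM, and that of 2 in Lyz2Cre/+.Egr2fl/fl became 1 with TMM and 4 with a minimum of 100 counts. In Ly6Chi monocyte-like cells the 6 became 1 without cells with Cxcl9, and the 4 became 2 without them and 7 with at least 90% own hashtag. In neutrophil-like cells the 1 of Egr2fl/fl became 0 without the top 10% of total counts, without cells above the median of hepatocyte genes, with TMM and with the mean over cells, 2 without cells with Cxcl9 and 3 with 100 counts. That of Lyz2Cre/+.Egr2fl/fl became 0 with Seurat clusters and with 90% own hashtag, and 4 without the cells high in hepatocyte genes. Between genotypes on CDA-HFD, 0 became 2 (C6 and C3) in moKC-like cells with 100 counts. In the same comparison 1 became 0 in Ly6Chi cells with Seurat clusters and with 90% own hashtag (C3ar1 at 1.83 and 1.97), and 1 became 3 in neutrophil-like cells without those high in hepatocyte genes. The causes were not tested. No Seurat cluster was mostly moKC-like, so that class has no cluster value. The ratio of C6 between moKC-like and Kupffer cell-like cells stayed between 0.0126 and 0.0258 in Egr2fl/fl and between 0.0458 and 0.0655 in Lyz2Cre/+.Egr2fl/fl, and that of C3ar1 between genotypes in hLAM-like cells between 1.35 and 1.50. TMM moved the median log2 ratio of all genes by at most 0.28. Depth limits the neutrophil-like cells, with a median of 3832 to 4139 counts.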
